A study of Mus musculus with 2 samples.

Results

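The genes described here are those that the deposited table of mouse tongue expression names *Gpr* followed by a number, the provisional symbol given to G protein-coupled receptors (GPCRs) that had no known ligand when they were found. *Gpr120*, a fatty acid receptor, was left out by rule, and its current name in the table does not begin with *Gpr*. This choice, made on the symbol alone, gave 86 genes of the 18498 rows in the table, and no symbol occurred more than once. RNA was compared between the circumvallate papillae (CvP), the taste papillae at the back of the tongue, and the tongue epithelium without papillae (Epi). Both tissues were taken from male wild-type C57BL/6J mice of 12 to 30 weeks on a normal chow diet. RNA of 20 or more mice was pooled for each tissue and made into 1 poly(A) library, so that there were 2 libraries and no replicates. Every difference below is a difference between these 2 libraries. No p-value was calculated, and a tissue sample of this kind cannot tell fewer cells of a type from less RNA per cell.

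GPCRs are membrane proteins that cross the membrane repeatedly and pass a signal from outside the cell to heterotrimeric G proteins within. Taste cells of type II use them to detect sweet, umami and bitter compounds, and signal through a G protein, a phospholipase and the channel encoded by *Trpm5*. The *Gpr* symbols cover unlike proteins. Some have since been paired with lipids, metabolites, protons or zinc, one group carries long adhesive extracellular regions and cuts itself near the membrane, and some are not receptors at all but proteins of the Golgi, the lysosome or a vitamin transporter. The genes were therefore grouped by role, with 15 adhesion receptors, 12 receptors for lipids or small metabolites, 4 proton-sensing receptors, 3 receptors that raise cyclic AMP without a ligand, 3 receptors of class C, 10 atypical membrane proteins and 39 other receptors, most of them orphans of the rhodopsin-like class.

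Values are reads per kilobase of exon model, scaled to the depth of the library (RPKM), as deposited, which allow levels to be compared between genes, and where a pair of values is given the CvP comes first. In rows of 0.1 kb CvP values were multiples of 0.352 and Epi values multiples of 0.358, the worth of a single read, which gave about 28374669 and 27904409 mapped reads. The depth, RPKM and length of a gene gave its approximate number of reads, and each CvP/Epi ratio carries a 95% exact (Clopper-Pearson) interval that covers counting error only. Where a library had no read, the ratio is a lower bound against a floor of 3 reads in that library. This bound leaves out counting error of the other library, so the 95% limit nearer to 1 is given beside it. CvP values exceeded Epi values slightly in general, with a median ratio of 1.31 over the 10363 rows that reached an RPKM of 1 in both libraries. The markers of taste cells were in the CvP as labelled. Of 9 listed type II markers all were higher there, as were all 7 type III markers, and 4 of the latter had an Epi RPKM of 0. Type I was less uniform, since *Slc1a3* had an RPKM of 1.04 in the CvP against 3.82 in the Epi. Of the 12 immune markers all were also higher in the CvP, as were 13880 of the 18498 rows of the table. Among them *Cd79a* rested on about 1 read against none, and *Cd3g* on about 7 against 3 (interval 0.524 to 13.8). By contrast, all 7 muscle markers and 6 of the 8 markers of keratinized epithelium were higher in the Epi. For the muscle marker *Myh2* the interval of the ratio, 0.398 to 1.70, included 1.

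Most *Gpr* genes were scarcely expressed in either tissue. An RPKM of at least 1 was reached by 27 of the 86 genes in the CvP and by 19 in the Epi, 18 of them in both and 28 in either (32.6%), against 67.8% of all rows. The median RPKM of the 86 genes was 0.190 in the CvP against 0.0750 in the Epi, where the medians over all rows were 3.74 and 1.94. Counting members above 10, there were 6 in the CvP against 7 in the Epi. In 4 genes, *Gpr6*, *Gpr30*, *Gpr45* and *Gpr128*, both libraries had a value of 0.

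**Figure D1:**
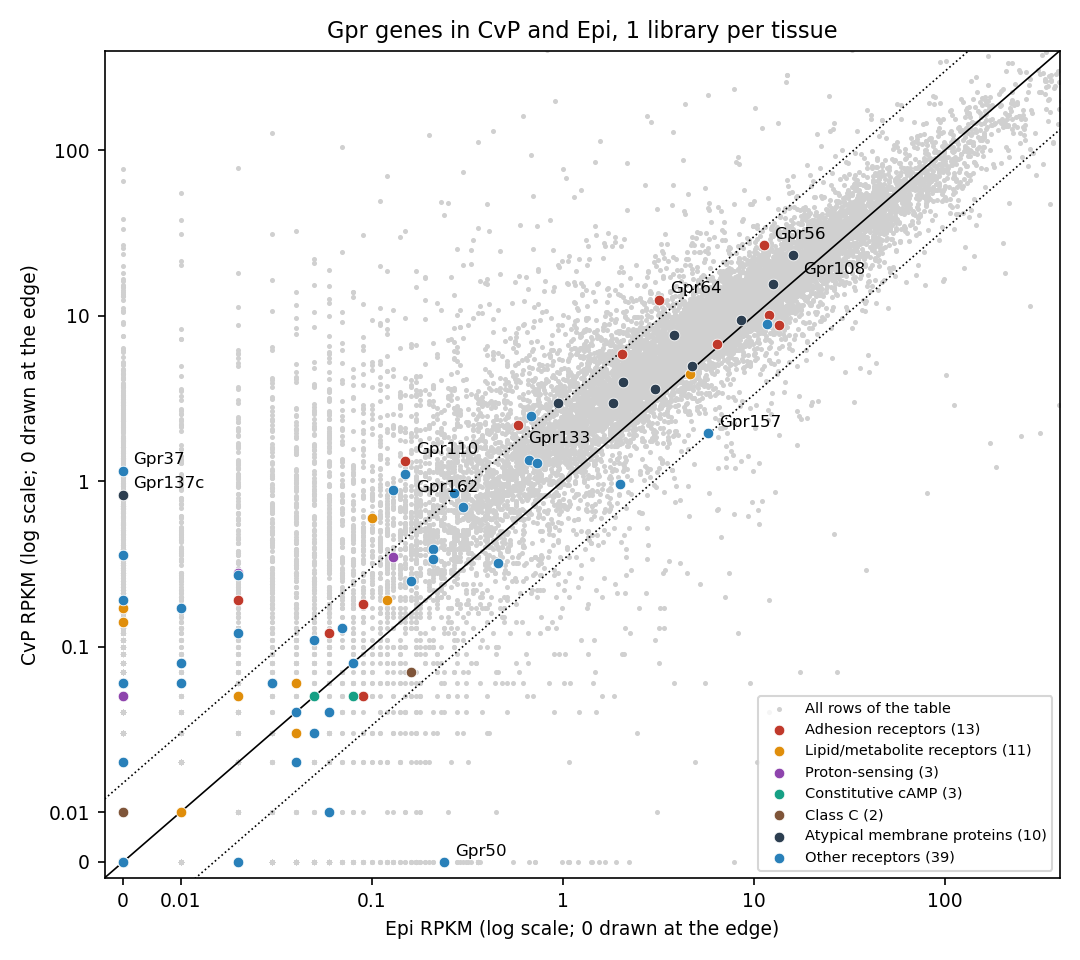
Each coloured point is a *Gpr* gene, with 81 of the 86 drawn and coloured by role, with its RPKM in the Epi on the horizontal axis and in the CvP on the vertical axis, both on log scales with values of 0 drawn at the edge; grey points are the rows of the table that fall within the axes, the solid line marks equal values and the dotted lines a ratio of 3 in either direction. *Gpr37* (1.16 and 0) stands far above the upper dotted line, while *Gpr157* (1.95 and 5.78) lies next to the lower one.

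A CvP RPKM of at least 1 together with a CvP/Epi ratio above 3 was found in 8 of the 86 genes (9.30%), against 10.8% of all rows. Among rows at an RPKM of 1 or more in either library it was 8 of 28 (28.6%), against 1998 of 12549. Of the 28 genes 9 entered only through their CvP value and had to be higher there, and 1 only through its Epi value. Split by the higher RPKM, the counts were 6 of 10 genes from 1 to 3, against 35.3% of rows. They were 1 of 10 from 3 to 10 (15.9% of rows) and 1 of 8 above 10 (7.58% of rows). Of the 8 genes 4 are adhesion receptors, and those described here are *Gpr37*, *Gpr110*, *Gpr162*, *Gpr64*, *Gpr133*, *Gpr161* and *Gpr172b*. In the opposite direction, an Epi RPKM of at least 1 with an Epi/CvP ratio above 3, no *Gpr* gene was found, against 1.33% of all rows. When every ratio was divided by the median ratio of 1.31, the numbers were 4 higher in the CvP and 1 higher in the Epi. With the study's own criteria for candidate genes, a CvP RPKM above 10 and a ratio above 3, *Gpr64* alone passed (1.16% of the *Gpr* genes, against 2.35% of all rows). The paper reports a larger set of candidates for these limits than passed here, so its candidate set was not reproduced. The reason for the gap was not tested.

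*Gpr37*, which encodes an orphan receptor related to endothelin receptors and known from myelinating cells of the brain, had an RPKM of 1.16 in the CvP, about 105 reads, and none in the Epi. The CvP value was thus at least 34.4-fold higher. An Epi value of 0 was shared by 214 of the 12339 rows with a CvP RPKM of at least 1. Its relative *Gpr37l1*, known from glia, was at 0.03 in the CvP against 0.05 in the Epi, at or below 3 reads in both. Markers of Schwann cells and nerve were low but higher in the CvP in 7 of 7 cases, with summed RPKM values of 15.9 and 10.5, among them *Pmp22* (3.68 and 0.92) and *Sox10* (0.18 and 0.08). Their part in the *Gpr37* value was not tested.

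*Gpr162*, an orphan of the rhodopsin-like class, had an RPKM of 1.11 in the CvP against 0.15 in the Epi, about 112 and 15 reads, a CvP/Epi ratio of 7.40 (4.27 to 13.6). *Gpr161* encodes a receptor of the primary cilium that restrains Hedgehog signalling, and its RPKM was 2.49 in the CvP against 0.68 in the Epi, a CvP/Epi ratio of 3.66 (2.72 to 4.96). *Gpr172b*, now *Slc52a2*, is a riboflavin transporter and not a receptor. Its values of 2.96 and 0.95 gave a CvP/Epi ratio of 3.12 (2.37 to 4.10). The lower limits of *Gpr161*, *Gpr172b* and *Gpr133* were under 3, so that counting error alone could place these genes on the other side of the limit, and after division by 1.31 the ratios of *Gpr64*, *Gpr133*, *Gpr161* and *Gpr172b* were 2.97, 2.89, 2.79 and 2.37.

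The sequence at the start of the gene is shown for the 4 of these 8 genes that have an entry in the RefSeq promoter table (GRCm38.p6), followed by *Gpr115* and *Gpr157*, which were higher in the Epi. Each window runs from 250 bases before to 50 bases after the transcription start, 5′ to 3′ along the gene, and each was also found unaltered in NCBI37/mm9 with its transcription start at the listed end of the gene from which it is read. *Gpr161* has a further entry, which is not shown. Capitals mark short motifs found on either strand, namely TATAAA, ATGCAAAT (the octamer of POU factors such as Pou2f3, the factor of type II cells), TGACTCA (AP-1), GGGCGG (GC box), CCAAT and CACGTG (E-box).
*Gpr37*, chr6:25689931-25690230, minus strand: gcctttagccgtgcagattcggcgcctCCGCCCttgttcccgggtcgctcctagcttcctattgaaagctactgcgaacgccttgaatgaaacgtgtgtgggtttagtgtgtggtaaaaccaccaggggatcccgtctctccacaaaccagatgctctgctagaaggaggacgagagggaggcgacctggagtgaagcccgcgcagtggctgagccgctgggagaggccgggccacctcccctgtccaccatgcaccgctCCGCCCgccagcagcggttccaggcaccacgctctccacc
*Gpr64*, chrX:160390440-160390739, plus strand: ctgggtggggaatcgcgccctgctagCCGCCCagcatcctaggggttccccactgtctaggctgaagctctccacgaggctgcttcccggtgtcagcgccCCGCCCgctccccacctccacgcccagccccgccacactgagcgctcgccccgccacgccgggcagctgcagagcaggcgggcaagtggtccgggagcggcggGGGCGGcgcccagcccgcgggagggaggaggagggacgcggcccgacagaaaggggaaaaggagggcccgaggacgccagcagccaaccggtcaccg
*Gpr110*, chr17:43270097-43270396, plus strand: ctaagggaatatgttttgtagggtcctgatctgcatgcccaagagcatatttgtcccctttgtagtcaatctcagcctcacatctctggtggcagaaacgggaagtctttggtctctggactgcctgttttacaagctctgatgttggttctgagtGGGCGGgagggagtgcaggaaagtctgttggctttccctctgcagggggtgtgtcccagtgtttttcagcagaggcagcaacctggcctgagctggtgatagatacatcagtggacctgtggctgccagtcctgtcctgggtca
*Gpr161*, chr1:165295516-165295815, plus strand: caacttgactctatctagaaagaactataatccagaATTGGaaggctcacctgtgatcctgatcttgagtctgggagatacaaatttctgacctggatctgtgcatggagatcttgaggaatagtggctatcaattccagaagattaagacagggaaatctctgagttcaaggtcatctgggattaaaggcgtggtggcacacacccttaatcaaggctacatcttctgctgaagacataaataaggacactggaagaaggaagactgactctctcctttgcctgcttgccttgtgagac
*Gpr115*, chr17:42692235-42692534, minus strand: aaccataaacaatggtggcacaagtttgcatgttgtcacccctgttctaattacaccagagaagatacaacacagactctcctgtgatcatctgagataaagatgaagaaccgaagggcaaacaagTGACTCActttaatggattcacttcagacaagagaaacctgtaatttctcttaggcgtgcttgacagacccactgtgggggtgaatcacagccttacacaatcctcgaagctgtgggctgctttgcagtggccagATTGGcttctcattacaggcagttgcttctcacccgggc
*Gpr157*, chr4:150087253-150087552, plus strand: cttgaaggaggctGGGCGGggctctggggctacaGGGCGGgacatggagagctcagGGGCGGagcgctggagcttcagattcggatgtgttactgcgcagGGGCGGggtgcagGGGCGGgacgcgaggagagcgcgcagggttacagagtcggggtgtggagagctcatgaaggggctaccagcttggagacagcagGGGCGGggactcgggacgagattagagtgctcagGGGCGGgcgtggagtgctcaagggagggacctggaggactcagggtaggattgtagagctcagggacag

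The 6 windows were of unlike composition. *Gpr37*, *Gpr64* and *Gpr157* held 21, 30 and 18 CpG dinucleotides at a GC content of 62.7%, 74% and 65.7%, and each held a GC box. *Gpr110*, *Gpr161* and *Gpr115* held 2, 1 and 4 CpG, at 52.7%, 44.0% and 46.7% GC. A GC box was also in *Gpr110*. The genes higher in the CvP thus fell on both sides of this divide, as did the 2 genes higher in the Epi. The octamer ATGCAAAT was in none of the 82 windows of the 63 *Gpr* genes with an entry, and in 1.75% of all 32544 windows in the table that differ in sequence. GGGCGG was in 34 of the 82 windows, against 35.9% of all windows, and CCAAT also in 34, against 37.4%. TGACTCA was in 6 (5.19% of all), TATAAA in 6 (13.6% of all) and CACGTG in 2 (7.17% of all). A match is a match of letters only.

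The adhesion receptors were the best represented of the receptor groups. Of the 15 genes 9 reached an RPKM of 1 in either library, a level reached by 67.8% of all rows. A ratio above 3 was found in 4 of these 9, *Gpr110*, *Gpr64* and *Gpr133* among them, against 1998 of the 12549 such rows. *Gpr110* and *Gpr133* reached the level of 1 in the CvP alone and so had to be higher there. *Gpr56* (Adgrg1), a receptor known from development of the cerebral cortex, was the highest, with an RPKM of 26.7 in the CvP against 11.3 in the Epi, a CvP/Epi ratio of 2.36 (2.20 to 2.54). *Gpr64* (Adgrg2), best known from the epididymis, followed with 12.5 and 3.21, a CvP/Epi ratio of 3.89 (3.50 to 4.34). *Gpr125* (Adgra3) had 5.91 and 2.05, a CvP/Epi ratio of 2.88 (2.50 to 3.33), just under the limit of 3. *Gpr133* (Adgrd1) had 2.20 and 0.58, a CvP/Epi ratio of 3.79 (2.96 to 4.85). Each of these 4 was higher in the CvP by more than the median of 1.31.

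*Gpr126* (Adgrg6), a receptor needed for myelination by Schwann cells, was nearly equal in both tissues, at 6.77 in the CvP against 6.44 in the Epi. The interval of its CvP/Epi ratio of 1.05 ran from 0.970 to 1.14, so that no difference was detectable by counting. The other 6 adhesion genes were below an RPKM of 1 in both libraries. *Gpr98* (Adgrv1), the very large receptor of the inner ear and retina, had only 0.19 in the CvP against 0.02 in the Epi, but over 19.3 kb this amounted to about 104 and 11 reads and a CvP/Epi ratio of 9.50 (4.99 to 19.2). *Gpr97*, *Gpr116* and *Gpr124* ran from 0.05 to 0.18 in the CvP and from 0.06 to 0.09 in the Epi, and the interval of the ratio included 1 in each of them. *Gpr128* was at 0.

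**Figure D2:**
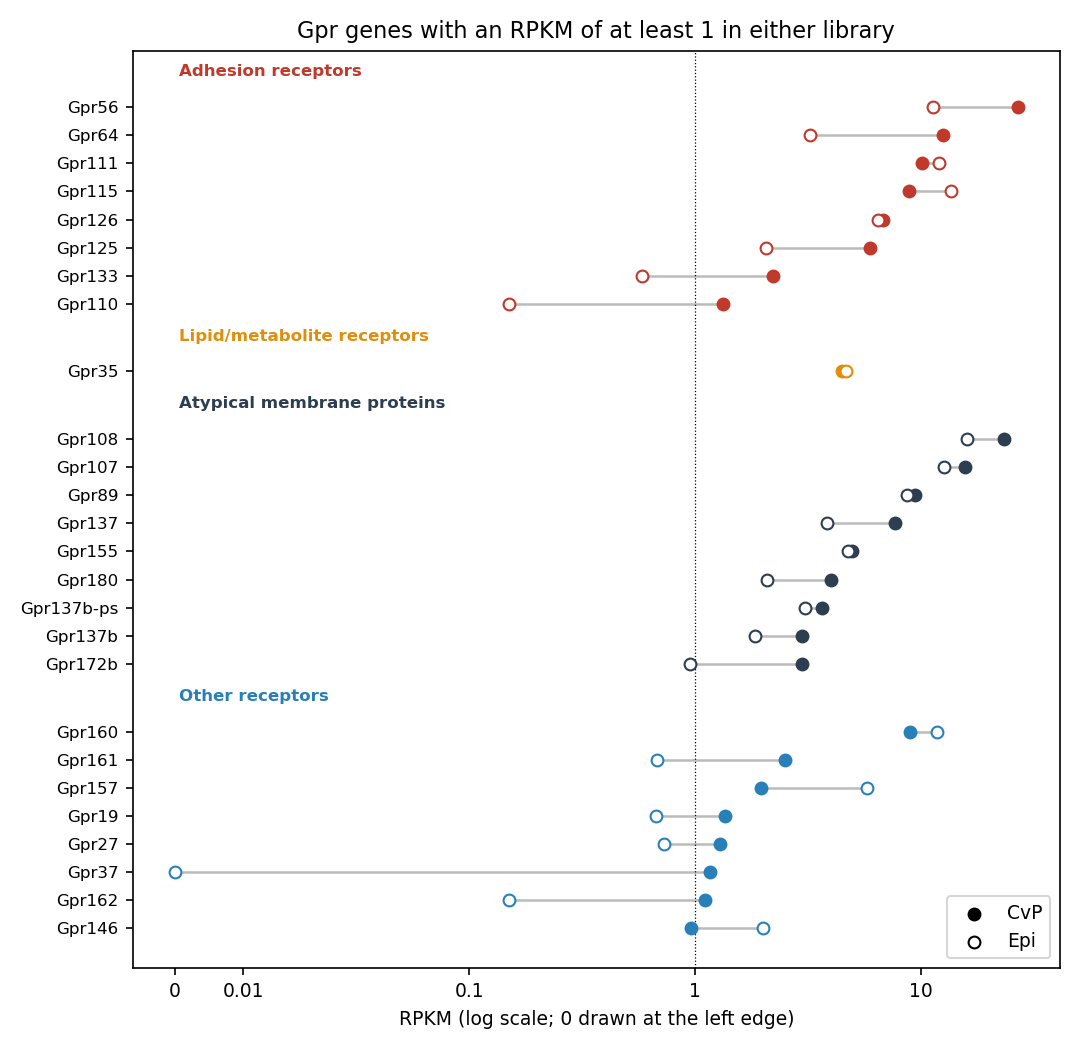
RPKM (log scale, 0 drawn at the left edge) of 26 of the 28 *Gpr* genes that reached 1 in either library, grouped by role, with a filled circle for the CvP and an open circle for the Epi, 1 library each; the dotted line marks an RPKM of 1. The widest gap is that of *Gpr37* toward the CvP, and the atypical membrane proteins all have the filled circle to the right, before any division by the median ratio.

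The members of adhesion subfamily F went in unlike directions. *Gpr110* (Adgrf1), *Gpr111* (Adgrf2), *Gpr115* (Adgrf4) and *Gpr116* (Adgrf5) lie within 803 kb of chromosome 17. *Gpr115* and *Gpr111* are 16.7 kb apart on the minus strand with no other row between them. *Gpr115* had an RPKM of 8.82 in the CvP against 13.6 in the Epi, a CvP/Epi ratio of 0.650 (0.592 to 0.713), and *Gpr111* one of 10.1 and 12.0, a CvP/Epi ratio of 0.838 (0.767 to 0.915). Both were thus lower in the CvP, and both were among the highest *Gpr* genes of the Epi. *Gpr111* passed 1 (to 1.01) when the RPKM values were rescaled to a common sum. *Gpr110*, 528 kb further along on the plus strand, was low and went the other way, at 1.33 in the CvP against 0.15 in the Epi, about 132 and 15 reads, a CvP/Epi ratio of 8.87 (5.06 to 15.9). *Gpr116*, 65.1 kb from *Gpr110* and known from lung and vessel walls, was at 0.05 and 0.09.

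The listed lengths of *Gpr115* and *Gpr111*, 9.91 and 6.181 kb, are 3.24 and 1.88 times those of their longest GENCODE M1 transcripts, which can lower their RPKM but bears on both libraries alike. On chromosome 8, *Gpr56* and *Gpr97*, which both belong to subfamily G, lie in the same orientation with no other row between them. The level of *Gpr56* was not shared by *Gpr97*, although *Gpr97* begins only 3.48 kb downstream. Its RPKM was 0.18 and 0.09.

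**Figure D3:**
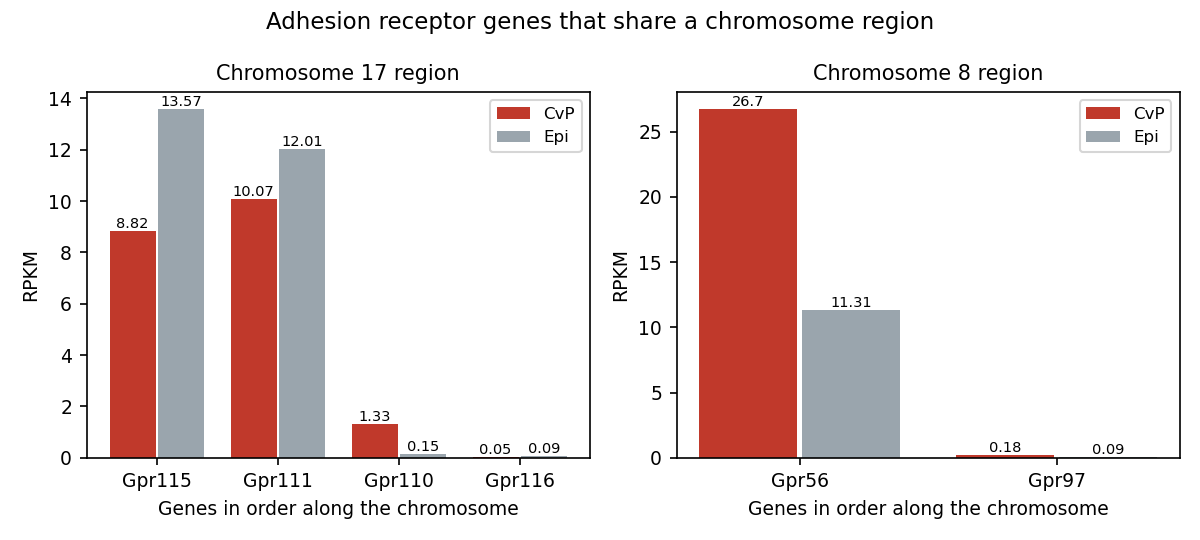
Bars give the RPKM in the CvP (red) and the Epi (grey), 1 library each, from an axis that starts at 0, for adhesion receptor genes in their order along chromosome 17 (left) and chromosome 8 (right). *Gpr115* and *Gpr111* are higher in the Epi and *Gpr110* in the CvP, and on chromosome 8 *Gpr56*, unlike *Gpr97*, is above an RPKM of 1.

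Among the 12 receptors for lipids and small metabolites, 2 reached an RPKM of 1. One of them was *Gpr35*, a receptor for which kynurenic acid and lysophosphatidic acid have been proposed and which is known from the gut and immune cells. It had 4.46 in the CvP against 4.64 in the Epi, a CvP/Epi ratio of 0.961 (0.852 to 1.09). No difference was detectable by counting, and its listed length of 10.956 kb is 2.59 times that of its transcript. The other 10 of this group were below 1 in both libraries. *Gpr31c* had the highest value of these, 0.60 in the CvP against 0.10 in the Epi, with about 16 and 3 reads (ratio 6.00, interval 1.5 to 28.1). These reads follow the shorter transcript length. Its listed length of 2.905 kb is 3.03 times that and would give more reads. *Gpr44*, the prostaglandin D2 receptor of T helper and mast cells, and *Gpr81*, the lactate receptor, were at 0.03 and 0.06 in the CvP and at 0.04 in the Epi. *Gpr30*, the estrogen-binding receptor now named Gper1, was at 0 in both.

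All 10 atypical membrane proteins were higher in the CvP as deposited, as were 13880 of the 18498 rows of the table, but after division by the median ratio of 1.31 the ratios of *Gpr107*, *Gpr137b-ps*, *Gpr89* and *Gpr155* were under 1 (0.939, 0.904, 0.833 and 0.799). An RPKM of 1 was reached by 9 of the 10. Most differences were small. *Gpr108* and *Gpr107*, proteins of the Golgi, had RPKM values of 23.2 and 15.6 in the CvP and of 16.02 and 12.7 in the Epi, with ratios of 1.45 (1.33 to 1.57) and 1.23 (1.16 to 1.31). *Gpr89*, an anion channel that sets the pH of the Golgi, had 9.42 and 8.61, and *Gpr155*, a lysosomal protein that senses cholesterol, 4.96 and 4.73. The intervals of both ratios, 0.976 to 1.23 and 0.942 to 1.17, included 1, and *Gpr89* shares 1333 exon bases with *Pdzk1* on the opposite strand (1.52 and 1.22). *Gpr137*, of the lysosome, had 7.67 and 3.82, a CvP/Epi ratio of 2.01 (1.69 to 2.39), but shares 517 exon bases with *Bad* on the opposite strand (12.35 and 11.1). *Gpr180* had 3.97 and 2.08, a CvP/Epi ratio of 1.91 (1.58 to 2.31).

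*Gpr137b*, which also works at the lysosome, had an RPKM of 2.98 and 1.84, and *Gpr137b-ps*, a pseudogene copy, 3.63 and 3.06. Of the 75-base windows of the *Gpr137b* transcript 16.7% occur unaltered in the copy, and 20.4% with at most 2 mismatches, so the division of reads between the pair is uncertain in that part. The third relative, *Gpr137c*, was at 0.83 in the CvP, about 57 reads, and at 0 in the Epi, at least 18.7-fold higher. It shares 159 exon bases with *Txndc16* on the opposite strand, whose RPKM was 4.76 in the CvP against 0.39 in the Epi, and counting was not stated to use strand.

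**Figure D4:**
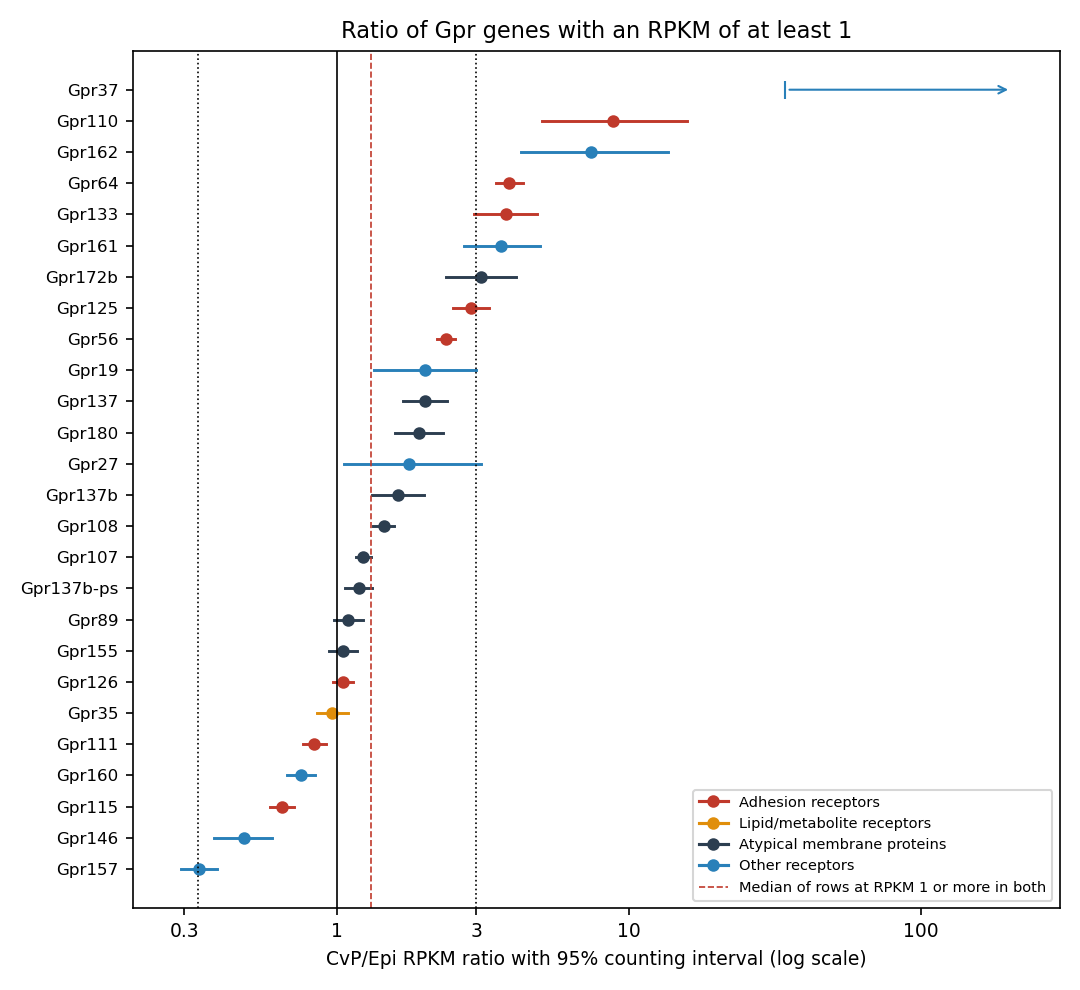
CvP/Epi ratio (log scale) of 26 of the 28 *Gpr* genes that reached an RPKM of 1 in either tissue, with 95% counting intervals from the estimated reads of 1 library per tissue; the solid line marks 1, the dotted lines 3 and its inverse, and the dashed line the median of 1.31, and the arrow of *Gpr37* starts at its lower bound of 34.4. The ratios drawn run from *Gpr157* at 0.337 to *Gpr110* at 8.87, with *Gpr37* placed above as a bound, and most intervals lie between the dotted lines.

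Of the 39 other receptors 8 reached an RPKM of 1. Besides *Gpr37*, *Gpr161* and *Gpr162* these were *Gpr19*, *Gpr27*, *Gpr146*, *Gpr157* and *Gpr160*, and 3 of the 5 were lower in the CvP. *Gpr157*, an orphan receptor, had the lowest ratio of the expressed genes, with an RPKM of 1.95 in the CvP against 5.78 in the Epi, about 263 and 768 reads. It was 2.96-fold higher in the Epi, and the interval of its CvP/Epi ratio of 0.337 ran from 0.292 to 0.388. *Gpr146*, a receptor known from liver lipid metabolism, had 0.96 and 2.0, a CvP/Epi ratio of 0.480 (0.380 to 0.601), and shares 678 exon bases with *D830046C22Rik*, which was itself at or below 0.02. *Gpr160* had 8.90 and 11.8, a CvP/Epi ratio of 0.754 (0.674 to 0.843). *Gpr19* (1.35 and 0.67) had a CvP/Epi ratio of 2.01 (1.34 to 3.0).

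*Gpr27*, *Gpr85* and *Gpr173* form a conserved group of receptors known from brain. *Gpr27* had an RPKM of 1.29 in the CvP against 0.73 in the Epi, with a CvP/Epi ratio of 1.77 (1.06 to 3.13). *Gpr85* was at 0.36, about 30 reads, and at 0 in the Epi, at least 9.83-fold higher. *Gpr173* had 0.17 and 0.01, about 16 reads and 1 read.

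None of the 4 proton-sensing receptors, which respond to acid outside the cell, reached an RPKM of 1. *Gpr65*, known from lymphocytes, was higher in the CvP, at 0.28 against 0.02, about 16 reads and 1 read (ratio 14, interval 2.44 to 660). *Gpr132* had 0.35 and 0.13 (ratio 2.69, interval 1.18 to 6.41). *Gpr4*, a receptor of endothelial cells, had about 4 reads in the CvP and none in the Epi.

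*Gpr3*, *Gpr6* and *Gpr12*, which raise cyclic AMP without a ligand, did not exceed an RPKM of 0.08 in either library. In class C, *Gpr158* had about 2 reads in the CvP and none in the Epi. *Gpr179*, a protein of retinal bipolar cells, was at 0.07 and 0.16, about 18 and 41 reads, a CvP/Epi ratio of 0.438 (0.233 to 0.769).

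Of the 58 *Gpr* genes below an RPKM of 1 in both libraries, 38 were higher in the CvP, 12 in the Epi and 8 equal. Split by the higher value, 13 of 29 genes below 0.1 and 25 of 29 from 0.1 to 1 were higher in the CvP, against 53.8% and 80.0% of all rows in the same classes, so the *Gpr* genes were close to the table as a whole. In 16 of them both libraries had 3 estimated reads or fewer, and differences could not be detected at this depth. Of all 86 genes 20 share exon bases with another annotated gene, and their reads cannot be told apart there without strand. *Gpr182*, a receptor of endothelial cells, had the highest CvP value of this group, 0.89 against 0.13 in the Epi (ratio 6.85, interval 3.52 to 16.2), and shares 60 exon bases with *Zbtb39* on the opposite strand. Of 6 endothelial markers 4 were higher in the CvP, as were 13880 of the 18498 rows of the table. Their summed RPKM values were 7.31 and 0.5, and the markers were uneven. *Vwf* was at 4.45 and 0.09 and *Tek* at 2.49 and 0.07, but *Cdh5* at 0.02 and 0.06. *Kdr*, at 0.04 and 0.02, had about 6 and 3 reads, and the interval of its ratio, 0.420 to 12.2, included 1. The part of these markers in the *Gpr182* value was not tested. *Gpr39*, the zinc receptor, had 0.85 and 0.27 (ratio 3.15, interval 1.91 to 5.57), and shares 1202 exon bases with *Lypd1* on the opposite strand. *Gpr50*, a relative of the melatonin receptors, was the clearest case of the opposite kind. It was at 0 in the CvP against 0.24 in the Epi, about 12 reads, and thus at least 4.07-fold higher in the Epi.

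Several receptors known from immune cells were near the limit of detection, unlike *Gpr35* above (4.46 and 4.64). *Gpr34*, *Gpr84*, *Gpr171*, *Gpr183*, *Gpr18*, *Gpr141* and *Gpr174* had CvP values from 0.01 to 0.25 and Epi values from 0 to 0.16. These 7 were chosen from general knowledge with their values known, and no direction is read from them. The largest count among these 7 was that of *Gpr141*, about 24 CvP reads and 15 Epi reads. *Gpr34*, a receptor of macrophages and microglia, had about 9 reads in the CvP and none in the Epi, at least 2.95-fold higher. The summed RPKM of the 12 immune markers was 224.5 in the CvP against 28.02 in the Epi. *Lyz2* (131.64 and 0.43) and *Cd74* (60.56 and 19.9) made up most of the CvP sum. *Ptprc*, which marks all leukocytes, was at 1.18 and 0.23. The T cell marker *Cd3e* was at 0.15 and 0, about 6 reads and none. The part of these markers in the values of the 7 receptors was not tested.

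Over all 86 genes the median ratio was close to that of the table. Of these genes 58 were below an RPKM of 1 in both libraries, where adding 0.1 to both values draws ratios toward 1. The median of log2((CvP RPKM + 0.1)/(Epi RPKM + 0.1)) was 0.47 over the 86 genes and 0.49 over all rows. Over the 28 genes at an RPKM of 1 or more in either library it was 0.71, against 0.50 over the 12549 such rows, but a gene that enters only through its CvP value had to be higher there, which concerned 9 of the 28 genes. Split by the higher of the 2 RPKM values, the medians went apart in both directions. In the class from 1 to 3 the median was 1.64 over 10 *Gpr* genes and 1.03 over 2474 rows. From 3 to 10 it was 0.18 over 10 genes and 0.63 over 4333 rows. Above 10 it was 0.02 over 8 genes and 0.26 over 5742 rows, and 4 of the 8 genes were higher in the CvP, against 67.6% of the rows.

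**Figure D5:**
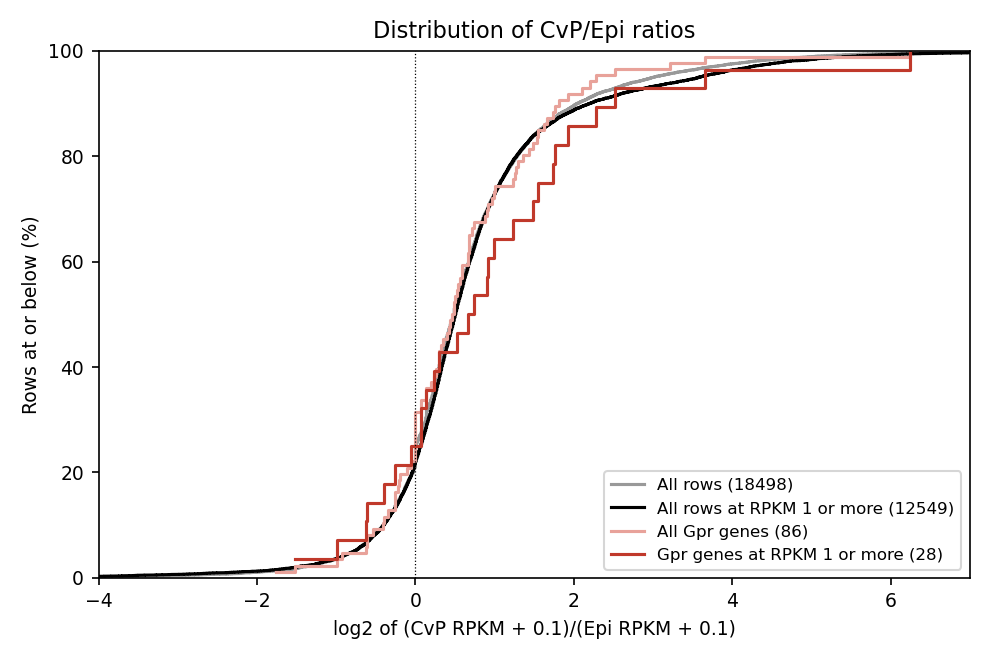
Cumulative share of rows (vertical axis, %) at or below a given log2 ratio of CvP to Epi RPKM with 0.1 added to both (horizontal axis), for all rows, all 86 *Gpr* genes, and those of each that reached an RPKM of 1 in either tissue. The curve of the 86 genes runs along that of all rows (medians 0.47 and 0.49), while that of the 28 expressed genes lies to the right of the other curves in its upper middle part (median 0.71) and to their left among the lowest ratios.

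Some related genes outside the *Gpr* symbols also differed between the libraries. The retinoic acid-inducible class C receptors *Gprc5a*, *Gprc5b* and *Gprc5c* had CvP values of 4.07, 7.05 and 2.73 and Epi values of 0.16, 0.56 and 0.10, with ratios of 25.4 (13.5 to 57.8), 12.6 (9.84 to 16.2) and 27.3 (15.0 to 58.9). *Gprc6a*, the fourth gene of that list, was at 0. Another list held 13 genes that act on GPCRs after activation or on their way to the membrane. Of these, 5 had a CvP RPKM of at least 1 and a ratio above 3, against 10.8% of all rows. None met the opposite limits, against 1.33% of all rows. With an RPKM of 1 or more in either library it was 5 of 8 genes, against 1998 of 12549 rows. *Arrb1*, *Arrb2* and *Gprasp2* entered only through their CvP value and had to be higher there, and *Ramp2* only through its Epi value. The Epi value was the larger in 3 of the 13, *Adrbk1*, *Ramp3* and *Ramp2*. *Ramp2* had 0.97 and 1.93, a CvP/Epi ratio of 0.503 (0.294 to 0.838). The arrestins *Arrb1* (2.73 and 0.64) and *Arrb2* (3.69 and 0.79) had ratios of 4.27 (3.51 to 5.22) and 4.67 (3.29 to 6.65). The receptor kinases divided, with *Adrbk2* at 5.89 and 1.18, a CvP/Epi ratio of 4.99 (4.32 to 5.81), and *Adrbk1*, the more abundant, at 43.4 and 55.4, a CvP/Epi ratio of 0.783 (0.752 to 0.816). *Gprasp1*, a sorting protein of receptors, had 7.06 and 2.02, and *Gprasp2* had 2.38 and none in the Epi, at least 84.6-fold higher.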

How the data were processed

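Single-end reads had been aligned by the authors with Bowtie 0.12.7 (build NCBI37/mm9), and they deposited RPKM values, given by ERANGE on an exon model of each gene, for 1 library per tissue. Options and the use of strand are not given in the sources used here. The deposited ratio column was not used.

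The *Gpr* genes, the lists by role and the marker lists were chosen with earlier results of these data known. Any *Gpr* gene could be named, but some are not reported here and enter only the counts and medians. Those past the limits, the highest in level and the expressed members of the receptor groups were given in full, and other genes came from the lists. The genes that overlap or enclose a *Gpr* gene were named after their values were seen.

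Depth was fitted in rows of 0.1 kb, where 113 of 113 CvP values and 107 of 112 Epi values were within an RPKM of 0.02 of a whole number of reads. In longer rows the listed length gave whole reads more often than the transcript (8 of 11 against 3 of 12 values in the CvP), but reads per gene were taken from the shorter of both, which widens the intervals. Listed lengths were over 1.5 times the transcript in 10 of the 28 expressed *Gpr* genes. RPKM is deposited to 2 decimals, so ratios of low values are coarse. No pseudocount was used in ratios and 0.1 in medians. The functions were tested on simulated data. Python 3.11.15, numpy 2.4.6, pandas 2.3.3, scipy 1.17.1 and matplotlib 3.10.9 were used.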

Additional observations from a re-analysis of the deposited data

How the results depend on the processing

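No paired analysis was possible because there was a single library per tissue, and no replicate could be left out. The number of *Gpr* genes higher in the CvP, 8 as reported, was 12 with a minimum RPKM of 0.5 or a ratio above 2, and 7 with a pseudocount of 0.1 or without the atypical proteins. It was 2 at a minimum RPKM of 3, 1 at a minimum of 10, 30 with no minimum, 4 with a ratio above 5, 2 with a pseudocount of 1, 4 after division by the median ratio and 15 with RPKM rescaled to a common sum, which multiplies each ratio by 1.21. The number higher in the Epi, 0 as reported, was 3 with no minimum, 2 with a ratio above 2 as well as 1 when divided by the median ratio, and 0 under the other 8 alternatives. The genes that met the study's criteria, 1 as reported, were 2 at a minimum of 3, 8 at a minimum of 1, 2 with a ratio above 2, 0 with a ratio above 5, 0 when divided by the median ratio, 3 rescaled to the common sum and 1 with a pseudocount of 1. The median log2 ratio of the expressed genes, 0.71, was 0.75 when 0.01 and 0.49 when 1 was added to both values, 0.47 with no minimum, 0.18 at a minimum of 3, 0.34 after division by the median ratio, 1.21 rescaled and 0.91 without the atypical proteins, and kept its sign. Of the ratios whose interval excluded 1, those of *Gpr107* (0.939) and *Gpr137b-ps* (0.904) changed direction after division by the median ratio, and that of *Gpr111* (1.01) did so when rescaled. Genes with a few estimated reads in the Epi, such as *Gpr65* and *Gpr31c*, are limited by depth, and their ratios are known only to within the intervals given.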
